A study of Bos taurus with 16 samples.

Results

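The G protein and cAMP signalling machinery, the route that runs downstream of the luteinising hormone (LH) receptor, was followed at the transcript level in bovine theca interna cells, the androgen-producing layer of the ovarian follicle wall. A gene was taken as a member when its symbol in the array's annotation began with ADCY, AKAP, PRKAC, PRKAR, GNAI, GNAS, GNAQ or GNA1, or with PDE, RGS, GNB or GNG followed by a digit. This gave 64 of the 9155 named genes, measured by 92 probe sets, and each gene is represented by whichever of its probe sets had the highest mean signal. They comprise 7 ADCY, 15 PDE, 6 PKA subunit (PRKAC and PRKAR), 6 AKAP, 7 G alpha (GNA), 5 G beta (GNB), 7 G gamma (GNG) and 11 RGS symbols. ADCYAP1R1, a receptor, PDE4DIP, a scaffold, and RGS9BP, an anchoring protein, entered by their symbols alone, while GNAQ, RGS2, RGS4, AKAP12, PDE4B and PDE4D carry no symbol in that annotation and were not analysed.

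Theca cells from about 50 pooled follicles of 4 to 6 mm in diameter, from the ovaries of slaughtered adult cattle, were kept for 6 days in serum-free primary culture. From day 3 to day 6 they received LH at 160 pg/ml together with bone morphogenetic protein 6 (BMP6) at 10 ng/ml (LH+BMP6), BMP6 alone, LH alone, or no added hormone (control). Each group held 4 Affymetrix bovine GeneChip arrays, which the labels describe as biological replicates from different batches of ovaries, and 16 arrays were used in all. Values are log2 signals, and a change is a difference between group means on that scale ± its standard error from limma, with n = 4 arrays per group. A gene is called changed at a Benjamini-Hochberg adjusted p under 0.05 over 24016 probe sets. The RNA is that of whole cultures, so fewer cells of a type and less RNA per cell cannot be told apart.

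When LH binds its receptor, the stimulatory alpha subunit Gs activates adenylyl cyclase, and the cAMP so formed releases the catalytic subunits of protein kinase A (PKA) from their regulatory subunits. Inhibitory Gi subunits hold cyclase back, RGS proteins speed the switching-off of Gi and Gq alpha subunits, phosphodiesterases (PDE) break cAMP or cGMP down, and A-kinase anchoring proteins (AKAP) fix PKA at particular places in the cell. In theca cells this pathway is known for driving the steroidogenic genes that make androgen.

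The mean signal of 7 markers of theca cells, the labelled cell type, was 7.19 to 7.97 on the LH+BMP6 arrays and 7.25 to 7.58 on the BMP6 arrays, against 10.27 to 11.42 on the LH arrays and 9.78 to 10.30 on the control arrays. By limma, 7 of the 7 fell in LH+BMP6 against LH and 6 in BMP6 against control, against 15.5% of all genes in each. STAR, the marker not called in BMP6 against control, differed there by -1.74 ± 0.68 (adjusted p = 0.0901). In both comparisons all 7 were lower without overlap between the groups. Of the 7, 0 were under the 40th percentile of signal. In 3 arrays, LH replicate 1 and control replicates 1 and 3, the 9 control probe sets for the spiked-in transcripts averaged 8.66 to 8.71, whereas they averaged 9.84 to 10.17 in the 13 others (the 3 dim-control arrays below). The difference of the actin control between its 3 prime and 5 prime ends, a sign of RNA quality, was 1.72 ± 0.28 in LH+BMP6, 1.86 ± 0.28 in BMP6, 2.10 ± 0.16 in LH and 2.20 ± 0.35 in control (SD, n = 4 each), with overlap between the groups. That of the GAPDH control was 0.14 ± 0.02 in LH+BMP6, 0.23 ± 0.04 in BMP6, 0.27 ± 0.11 in LH and 0.34 ± 0.05 in control. The 4 BMP6 arrays (0.18 to 0.27) lay below the 4 control arrays (0.29 to 0.41), while LH+BMP6 (0.11 to 0.16) and LH (0.15 to 0.41) overlapped. The part of RNA quality in the results was not tested.

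BMP6 changed a minority of these genes, and LH changed none by the test used. In LH+BMP6 against LH, 12 of the 64 genes rose and 5 fell, which is 26.6%, against 27.2% of all 9155 genes (11.7% rose and 15.5% fell) and 20.3% of all probe sets. In BMP6 against control, 5 rose and 4 fell, which is 14.1%, against 24.8% of all genes (9.31% rose and 15.5% fell) and 18.1% of all probe sets. The median change of the 64 genes was 0.04 with LH and 0.07 without it, and that of all probe sets -0.02 and 0.01. The 4 genes with changes of about 1 or more were AKAP5, which fell, and RGS1, RGS16 and ADCY2, which rose. Those 4 were called in both comparisons under each of the 22 alternative analyses of each comparison. Without the 3 dim-control arrays the counts were 7 in LH+BMP6 against LH, these 4 genes with GNG2, PDE4DIP and RGS10, and 4 in BMP6 against control, these 4 genes alone.

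**Figure D1:**
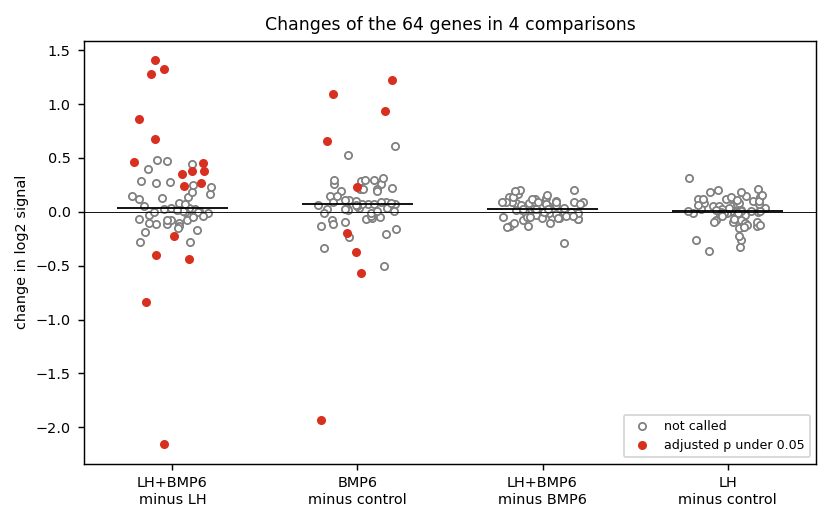
Change in log2 signal (vertical axis) of each of the 64 genes, 1 point per gene, in 4 comparisons; filled red points have a limma adjusted p under 0.05, open points do not, and the black bar is the median of the 64. Called genes are seen only in the 2 comparisons with and without BMP6 (17 and 9 genes), while the changes with LH lie between -0.36 and 0.31.

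In LH+BMP6 against LH, 15 of 64 genes had no overlap between the arrays of the groups (23.4%, against 20.9% of all probe sets), and in BMP6 against control also 15 (23.4%, against 22.8%). Each member has only the probe set of highest mean signal, so these shares are not like for like. Non-overlap over all genes with 1 probe set each was not counted, here or below. The 2 comparisons of BMP6 have no group in common, but their tests share an estimate of the spread from all 16 arrays. The 2 tests are therefore not independent. Of the genes called, 8 were called in both tests, with the same direction in all 8, which is 47.1% of the 17 and 88.9% of the 9. Over the 64 genes the changes correlated at r = 0.955, and over all probe sets at r = 0.899, as a description of points that share arrays and are not independent. Of the 64, 51 had the same sign in both. Shared calls and signs were not counted over all genes, so whether this overlap is particular to the 64 was not tested. At this threshold GNAI3 was called without LH and not with it, and ADCY7, GNAI2, GNB5, GNG2, PDE5A, PRKACB, RGS5, RGS10 and RGS19 with it and not without it, while some of these gained a call in the other comparison under alternative analyses. The interaction of LH and BMP6, which tests whether the 2 effects of BMP6 differ, called 0 of 64 genes by limma (1 at an unadjusted p under 0.05) and 0 of 24016 probe sets (773 unadjusted), so a different response to BMP6 with and without LH was not shown for any of these 10 genes.

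**Figure D2:**
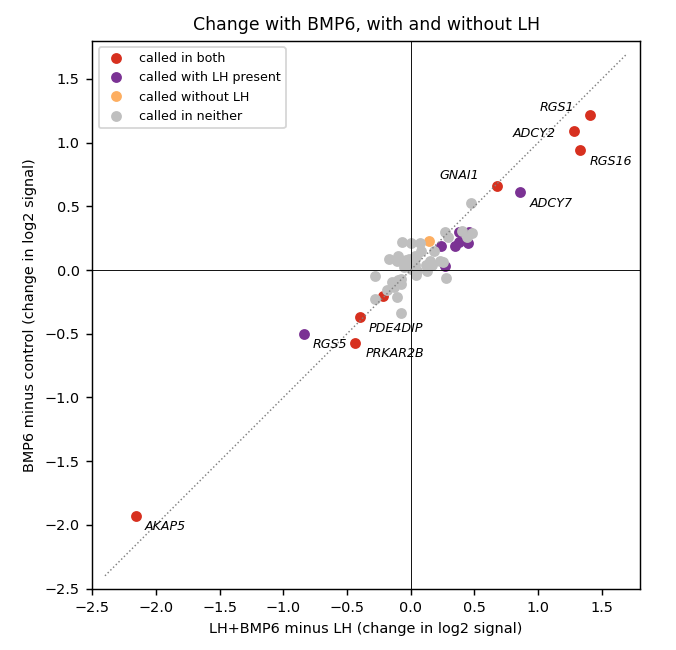
Change with BMP6 in the presence of LH (LH+BMP6 minus LH, horizontal axis) and in its absence (BMP6 minus control, vertical axis), in log2 signal, 1 point per gene for 64 genes; the dotted line marks equal changes and colour marks the comparison in which a gene was called. The 8 genes called in both lie at the lower left and the upper right, with AKAP5 at -2.16 and -1.93 and RGS1 at 1.41 and 1.22.

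Of the 7 G alpha genes, the inhibitory subunit genes GNAI1 and GNAI2 rose in LH+BMP6 against LH and GNAI1 and GNAI3 in BMP6 against control, while GNAS, the stimulatory one, was not called. That is 28.6% in each comparison, against 27.2% and 24.8% of all genes, and 0 fell in either. GNAI1, which encodes one of the 3 closely related Gi alpha subunits that hold adenylyl cyclase back, had signals of 9.79, 9.15, 9.72 and 9.88 on the LH+BMP6 arrays, against 8.77, 9.00, 9.08 and 8.98 on the LH arrays. On the BMP6 arrays they were 10.01, 8.92, 9.93 and 9.93, against 8.68, 9.20, 9.30 and 8.99 on the control arrays. LH+BMP6 and LH did not overlap for GNAI1, but BMP6 replicate 2 fell within the control range. The rise was 0.68 ± 0.21 (1.60-fold, adjusted p = 0.0293) with LH and 0.66 ± 0.21 (1.58-fold, adjusted p = 0.0373) without it. The call was lost without any one of LH+BMP6 replicates 1, 3 and 4 and LH replicates 1 and 4 (0.59 to 0.68, adjusted p 0.0543 to 0.0852), and without any one of BMP6 replicates 1, 3 and 4 and control replicates 1, 2 and 4 (0.54 to 0.71, adjusted p 0.0521 to 0.127).

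GNAI3, a second Gi alpha gene, showed a smaller but tighter difference. Its signals were 10.93, 10.92, 10.75 and 10.80 on the BMP6 arrays, against 10.60, 10.59, 10.67 and 10.63 on the control arrays, with every BMP6 array above every control array. The rise of GNAI3 was 0.23 ± 0.06 (adjusted p = 0.0108) and was kept without any single array, but not without the 3 dim-control arrays (0.24, adjusted p = 0.0606). In LH+BMP6 against LH the difference in GNAI3 was 0.14 ± 0.06 (adjusted p = 0.102), again with no overlap. GNAI2, the third of these genes, lay between 10.80 and 11.02 on the LH+BMP6 arrays and between 10.49 and 10.79 on the LH arrays, a rise of 0.24 ± 0.08 (adjusted p = 0.0372). Without any of LH replicates 1 and 4 and LH+BMP6 replicates 2, 3 and 4 that call was lost (0.18 to 0.25, adjusted p 0.0539 to 0.136). In BMP6 against control the difference in GNAI2 was 0.19 ± 0.08 (adjusted p = 0.106), a call gained without control replicate 3 (0.25, adjusted p = 0.0358).

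GNAS, which encodes the stimulatory subunit Gs alpha that couples the LH receptor to adenylyl cyclase, had signals of 11.96, 11.80, 12.05 and 12.45 on the LH+BMP6 arrays, against 12.28, 12.09, 12.14 and 12.20 on the LH arrays. Without LH, they were 12.03, 11.71, 12.35 and 12.15 on the BMP6 arrays, against 12.31, 12.10, 12.36 and 12.31 on the control arrays. Both pairs of groups overlapped. The difference was -0.11 ± 0.13 (95% interval -0.39 to 0.16) with LH and -0.21 ± 0.13 (-0.48 to 0.06) without it, and none of the 5 GNAS probe sets was called. Of the Gq family, whose alpha subunits activate phospholipase C, GNA11 differed by -0.10 ± 0.08 and -0.08 ± 0.08 and GNA15 by 0.17 ± 0.14 and 0.04 ± 0.14 in LH+BMP6 against LH and in BMP6 against control. A second GNA11 probe set gave 0.26 ± 0.12 (adjusted p = 0.139) and -0.01 ± 0.12 (adjusted p = 0.961). The differences in GNA14, also of the Gq family, were 0.44 ± 0.20 (adjusted p = 0.131) and 0.26 ± 0.20 (adjusted p = 0.419). None of the 3 was called.

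Among the G beta and gamma genes, whose products form the dimer that travels with the alpha subunit and acts on its own on some cyclases and channels, GNB5 and GNG2 rose in LH+BMP6 against LH. That is 1 of 5 beta genes and 1 of 7 gamma genes (14.3%), against 27.2% of all genes. In BMP6 against control 0.0% of either were called by limma, against 24.8% of all genes, although 2 beta genes and 1 gamma gene had an unadjusted p under 0.05. GNG2 signals were 9.32, 9.39, 9.30 and 9.57 on the LH+BMP6 arrays, against 8.99, 9.02, 8.91 and 8.80 on the LH arrays, without overlap. The rise of GNG2 was 0.46 ± 0.12 (1.38-fold, adjusted p = 0.00815) and was kept without any single array, and in BMP6 against control the difference was 0.30 ± 0.12 (adjusted p = 0.0877), a call gained without control replicate 3 (0.41, adjusted p = 0.016). GNB5, an unusual beta subunit that pairs with RGS7 and RGS9 in nerve and photoreceptor cells, lay at 6.90 to 7.30 on the LH+BMP6 arrays and 6.60 to 6.97 on the LH arrays. These ranges overlapped slightly, and the rise of 0.38 ± 0.11 (adjusted p = 0.0162) was lost without LH replicate 1 or LH+BMP6 replicate 2 (0.33 in both cases, adjusted p 0.0580 to 0.0583). In BMP6 against control GNB5 differed by 0.30 ± 0.11 (adjusted p = 0.0595), a call gained without BMP6 replicate 1 (0.38, adjusted p = 0.0233). A second GNB5 probe set gave 0.03 ± 0.12 (adjusted p = 0.888) in LH+BMP6 against LH. In BMP6 against control it gave 0.32 ± 0.12 (adjusted p = 0.0837), also not called. All 5 G beta genes had a positive difference in both comparisons, between 0.15 and 0.48 with LH and between 0.07 and 0.30 without it. GNB4 had the widest of these with LH, 0.48 ± 0.18 (adjusted p = 0.0734), and GNB2 differed by 0.23 ± 0.10 (adjusted p = 0.124). The represented probe set of GNB3 was not called, whereas its second probe set was called in BMP6 against control (0.35 ± 0.08, adjusted p = 0.00547) but not in LH+BMP6 against LH (0.00 ± 0.08). GNG11 and GNG12 differed by 0.28 ± 0.13 and 0.03 ± 0.13 with LH, and by -0.06 ± 0.13 and 0.04 ± 0.13 without it, and neither was called. The other 4 gamma genes differed by -0.13 to 0.13 with LH and by -0.13 to 0.04 without it.

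Of 6 adenylyl cyclases, the enzymes that make cAMP, ADCY2 rose in both comparisons and ADCY7 only with LH. Of the 7 ADCY symbols, 28.6% were called with LH and 14.3% without it, against 27.2% and 24.8% of all genes. ADCY2, a cyclase that the beta-gamma dimer can stimulate, had signals of 8.53, 8.97, 9.05 and 8.86 on the LH+BMP6 arrays, against 7.03, 7.52, 7.96 and 7.78 on the LH arrays. In BMP6 cultures they stood at 8.41, 9.01, 8.93 and 8.84, against 7.09, 7.57, 8.22 and 7.97 on the control arrays. Every array with BMP6 lay above every array without it, and replicate 1 was the lowest of its group in all 4 groups. ADCY2 rose by 1.28 ± 0.22 (2.43-fold, adjusted p = 0.000578) with LH and by 1.09 ± 0.22 (2.13-fold, adjusted p = 0.0024) without it. Leaving out single arrays gave 1.10 to 1.41 and 0.88 to 1.26, and leaving out the 3 dim-control arrays gave 1.10 and 1.03.

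ADCY7, a cyclase of the same subfamily that is abundant in blood cells, had signals of 6.98, 7.35, 6.89 and 6.42 on the LH+BMP6 arrays, against 5.11, 6.64, 6.27 and 6.18 on the LH arrays. The BMP6 arrays read 6.66, 7.36, 6.81 and 6.84, against 6.08, 6.60, 6.27 and 6.29 on the control arrays. LH replicate 1 was far below the other LH arrays, and only the BMP6 and control groups were free of overlap. The rise was 0.86 ± 0.26 (1.81-fold, adjusted p = 0.0258) with LH, and the difference without it was 0.61 ± 0.26 (adjusted p = 0.122). Without LH replicate 1 the ADCY7 difference was 0.54, and its call was lost without that array or without any one of LH+BMP6 replicates 1, 2 and 3 (adjusted p 0.0547 to 0.0865). The other cyclases were not called: ADCY6, which calcium inhibits, differed by 0.08 ± 0.08 and 0.15 ± 0.08, and ADCY4, another cyclase that the dimer stimulates, by -0.17 ± 0.11 and 0.09 ± 0.11. ADCY1 and ADCY8, the calmodulin-stimulated cyclases, differed by -0.07 ± 0.09 and -0.11 ± 0.11 with LH and by 0.22 ± 0.09 and 0.07 ± 0.11 without it. Probe sets of ADCY1, ADCY4, ADCY8 and the receptor ADCYAP1R1 were under the 40th percentile of mean signal (5.43), as were 20 of the 64 members in all, but no background level was estimated.

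**Figure D3:**
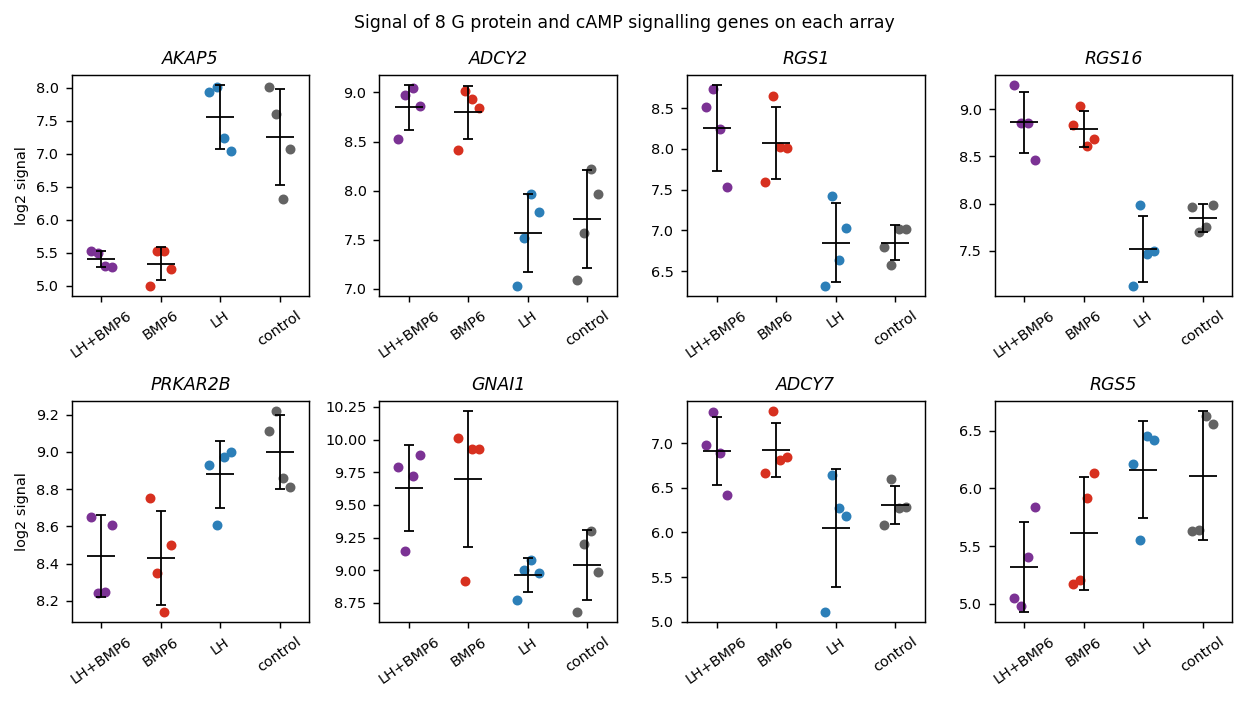
log2 signal (vertical axis, a separate scale for each gene) of 8 genes on each array, 1 point per array, in the LH+BMP6, BMP6, LH and control groups; the long bar is the mean and the error bars are the SD of 4 arrays. For AKAP5, ADCY2, RGS1 and RGS16 the 8 arrays with BMP6 do not overlap the 8 without it, while GNAI1, PRKAR2B, ADCY7 and RGS5 overlap in at least 1 comparison.

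RGS genes encode GTPase-activating proteins that shorten the signal of Gi and Gq alpha subunits, and one of them, RGS1, had the widest rise of the 64 genes in both comparisons. Of 11, RGS1, RGS16, RGS10 and RGS19 rose and RGS5 fell in LH+BMP6 against LH (45.5% called, against 27.2% of all genes), and RGS1 and RGS16 rose in BMP6 against control (18.2%, against 24.8%). RGS16 signals were 9.26, 8.85, 8.85 and 8.46 on the LH+BMP6 arrays, against 7.13, 7.99, 7.47 and 7.50 on the LH arrays. For BMP6 alone they were 8.83, 9.03, 8.61 and 8.68, against 7.96, 7.70, 7.75 and 7.99 on the control arrays. All arrays with BMP6 lay above all arrays without it. RGS16 rose by 1.33 ± 0.17 (2.52-fold, adjusted p = 3.37e-05) with LH and by 0.94 ± 0.17 (1.91-fold, adjusted p = 0.000832) without it. A second RGS16 probe set also rose, by 0.69 ± 0.13 (adjusted p = 0.00095) and 0.53 ± 0.13 (adjusted p = 0.00792). The third differed by 0.33 ± 0.12 in both comparisons and was not called (adjusted p = 0.0633 and 0.0646). The 6 RGS symbols not discussed singly were not called, with differences of -0.15 to 0.40 with LH and -0.09 to 0.31 without it.

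RGS1, best known from lymphocytes, had signals of 8.52, 8.73, 8.24 and 7.53 on the LH+BMP6 arrays, against 6.32, 7.42, 6.63 and 7.03 on the LH arrays. Without LH, they were 7.60, 8.65, 8.02 and 8.01 on the BMP6 arrays, against 6.80, 6.57, 7.02 and 7.02 on the control arrays. The groups did not overlap in either comparison, although LH+BMP6 replicate 4 came close to the highest LH array. RGS1 rose by 1.41 ± 0.26 (2.66-fold, adjusted p = 0.000973) with LH and by 1.22 ± 0.26 (2.32-fold, adjusted p = 0.00332) without it. Without the 3 dim-control arrays these were 1.23 and 1.27, and for RGS16 they were 1.20 and 0.94.

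RGS10, which is also expressed in immune cells, had signals of 7.31, 7.54, 7.40 and 7.34 on the LH+BMP6 arrays, against 6.71, 7.03, 6.94 and 7.12 on the LH arrays, without overlap. It rose by 0.45 ± 0.10 (1.36-fold, adjusted p = 0.00486), kept the call without any single array, and differed by 0.21 ± 0.10 (adjusted p = 0.184) in BMP6 against control. RGS19, a regulator of Gi subunits that lies outside the naming rule and was picked after its values were seen, rose by 0.35 ± 0.12 with LH (adjusted p = 0.0496). Its second probe set gave -0.08 ± 0.11, and the call was lost without any one of LH replicates 1 and 3 and the 4 LH+BMP6 arrays (0.19 to 0.37, adjusted p 0.0602 to 0.154). More leukocyte markers were called in LH+BMP6 against LH, where ADCY7, RGS1, RGS10 and RGS19 rose, than in BMP6 against control, where RGS1 rose. Of the 6 named of 8 listed, PTPRC (0.95), CD14 (1.04), CD68 (0.46) and CD3E (0.91) rose in LH+BMP6 against LH and CD14 (1.13) in BMP6 against control. That is 66.7% and 16.7% called, against 27.2% and 24.8% of all genes. CSF1R (-0.01 and 0.03) and ITGAM (0.04 and 0.23) were called in neither. In BMP6 against control PTPRC (0.72 ± 0.26, adjusted p = 0.0695), CD3E (0.56 ± 0.23, adjusted p = 0.105) and CD68 (0.20 ± 0.14, adjusted p = 0.373) were higher but not called. All 6 differences in that comparison were positive, and the interaction of LH and BMP6 called 0 of the 6 by limma. The mean signal of the 6 was 6.70 to 7.07 on the LH+BMP6 arrays, 6.46 to 7.08 on the BMP6 arrays, 6.03 to 6.47 on the LH arrays and 6.28 to 6.44 on the control arrays. Of the 6, 1 was under the 40th percentile, and the part of these markers in the rises was not tested.

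RGS5, a marker of pericytes as well as a regulator of Gi and Gq, was the only RGS gene that fell. Its signals were 5.05, 4.98, 5.41 and 5.84 on the LH+BMP6 arrays, against 6.21, 5.55, 6.45 and 6.42 on the LH arrays. In BMP6 cultures they stood at 5.17, 5.21, 5.92 and 6.13, against 5.63, 5.64, 6.63 and 6.56 on the control arrays. The groups overlapped in both comparisons, and in all 4 groups replicates 3 and 4 were higher than replicates 1 and 2. The fall was 0.84 (SE 0.29, 1.79-fold, adjusted p = 0.0469) with LH, and the difference without it was -0.50 ± 0.29 (adjusted p = 0.262). With a replicate block in limma, the difference without LH was also called (adjusted p = 0.0103). The RGS5 call with LH was lost without any one of LH replicates 1, 3 and 4 and LH+BMP6 replicates 1, 2 and 3 (-0.86 to -0.72, adjusted p 0.0794 to 0.127). Of 7 named of 9 listed pericyte and smooth muscle markers, DES rose in both comparisons (0.87 and 0.76) and MCAM fell with LH (-0.53). That is 28.6% and 14.3% called, against 27.2% and 24.8% of all genes. The mean signal of that list was 7.43 to 7.75, 7.49 to 7.75, 7.26 to 7.72 and 7.31 to 7.63 on the LH+BMP6, BMP6, LH and control arrays, and its part in the fall was not tested.

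Among the 6 PKA subunit genes, 1 regulatory subunit fell with BMP6 and 1 catalytic subunit rose in a single comparison. That is 33.3% called with LH and 16.7% without it, against 27.2% and 24.8% of all genes. PRKAR2B, which encodes the RII beta regulatory subunit that binds anchoring proteins, had signals of 8.65, 8.24, 8.25 and 8.61 on the LH+BMP6 arrays, against 8.93, 8.61, 8.97 and 9.00 on the LH arrays. The BMP6 arrays read 8.75, 8.35, 8.14 and 8.50, against 9.11, 9.22, 8.86 and 8.81 on the control arrays. BMP6 and control did not overlap, and LH+BMP6 and LH touched through LH replicate 2. PRKAR2B fell by 0.44 (SE 0.14, 1.35-fold, adjusted p = 0.0325) with LH and by 0.57 (SE 0.14, 1.48-fold, adjusted p = 0.00803) without it. The second call was kept without any single array but not without the 3 dim-control arrays (-0.58, adjusted p = 0.0526). The first was lost without any one of LH replicates 1, 3 and 4 and LH+BMP6 replicates 2 and 3 (-0.42 to -0.37, adjusted p 0.0771 to 0.106).

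PRKACB, a catalytic subunit, lay at 9.24 to 9.55 on the LH+BMP6 arrays and 8.96 to 9.25 on the LH arrays, a rise of 0.27 ± 0.09 (adjusted p = 0.0462) that was lost without any one of LH replicates 1, 2 and 4 and LH+BMP6 replicates 1, 2 and 3 (0.21 to 0.29, adjusted p 0.0631 to 0.142). In BMP6 against control it differed by 0.03 ± 0.09 (adjusted p = 0.86). PRKACA, the other catalytic subunit measured, differed by -0.28 ± 0.11 (adjusted p = 0.0956) and -0.23 ± 0.11 (adjusted p = 0.177). The regulatory subunits PRKAR1A, PRKAR1B and PRKAR2A differed by 0.03 to 0.05 with LH and by -0.01 to 0.11 without it, and none was called.

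AKAP5 had the widest change of all 64 genes. It encodes a membrane scaffold that holds PKA, protein kinase C and the phosphatase calcineurin near receptors and channels. Its signals were 5.52, 5.49, 5.30 and 5.29 on the LH+BMP6 arrays, against 7.94, 8.01, 7.24 and 7.05 on the LH arrays. For BMP6 alone they were 5.00, 5.53, 5.52 and 5.25, against 8.01, 7.61, 6.32 and 7.07 on the control arrays. The 8 arrays with BMP6 were all below the 8 without it, and its means in LH+BMP6 and in BMP6 both lay under the 40th percentile cut of 5.43. AKAP5 fell by 2.16 (SE 0.28, 4.47-fold, adjusted p = 4.78e-05) with LH and by 1.93 (SE 0.28, 3.80-fold, adjusted p = 0.000151) without it.

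A second AKAP5 probe set gave a fall of the same direction, with -1.45 ± 0.28 (adjusted p = 0.00133) with LH and -1.40 ± 0.28 (adjusted p = 0.00202) without it. Its means with BMP6, 3.72 in LH+BMP6 and 3.52 in BMP6, lay under the lower quartile of the arrays (4.31 to 4.43), so the folds of both probe sets may be too small. Leaving out single arrays gave changes of -2.33 to -2.01 with LH and of -2.24 to -1.67 without it for the represented probe set. Without the 3 dim-control arrays these changes were -2.03 and -2.01.

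Of the 6 AKAP symbols, 33.3% were called in each comparison, against 27.2% of all genes with LH and 24.8% without it. AKAP8, a nuclear anchoring protein, was the other AKAP gene called. Its signals were 7.35, 7.28, 7.45 and 7.37 on the LH+BMP6 arrays, against 7.54, 7.67, 7.62 and 7.50 on the LH arrays, and 7.34, 7.45, 7.32 and 7.39 on the BMP6 arrays, against 7.64, 7.56, 7.51 and 7.60 on the control arrays. The groups did not overlap in either comparison. AKAP8 fell by 0.22 (SE 0.07, adjusted p = 0.0293) and by 0.20 (SE 0.07, adjusted p = 0.0494). The first call was lost without any one of LH replicates 2 and 3 and LH+BMP6 replicates 1 and 2 (-0.22 to -0.19, adjusted p 0.0562 to 0.0883), the second without any one of the 8 arrays except BMP6 replicate 2 (-0.22 to -0.18, adjusted p 0.0529 to 0.132), and its second probe set was not called (-0.04 ± 0.09 and -0.15 ± 0.09). AKAP8L, its nearest relative, differed by -0.08 ± 0.12 and -0.34 ± 0.12 (adjusted p = 0.709 and 0.0695). AKAP4, a sperm-tail protein, had a signal under the 40th percentile and differed by 0.29 ± 0.15 and 0.26 ± 0.15.

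**Figure D4:**
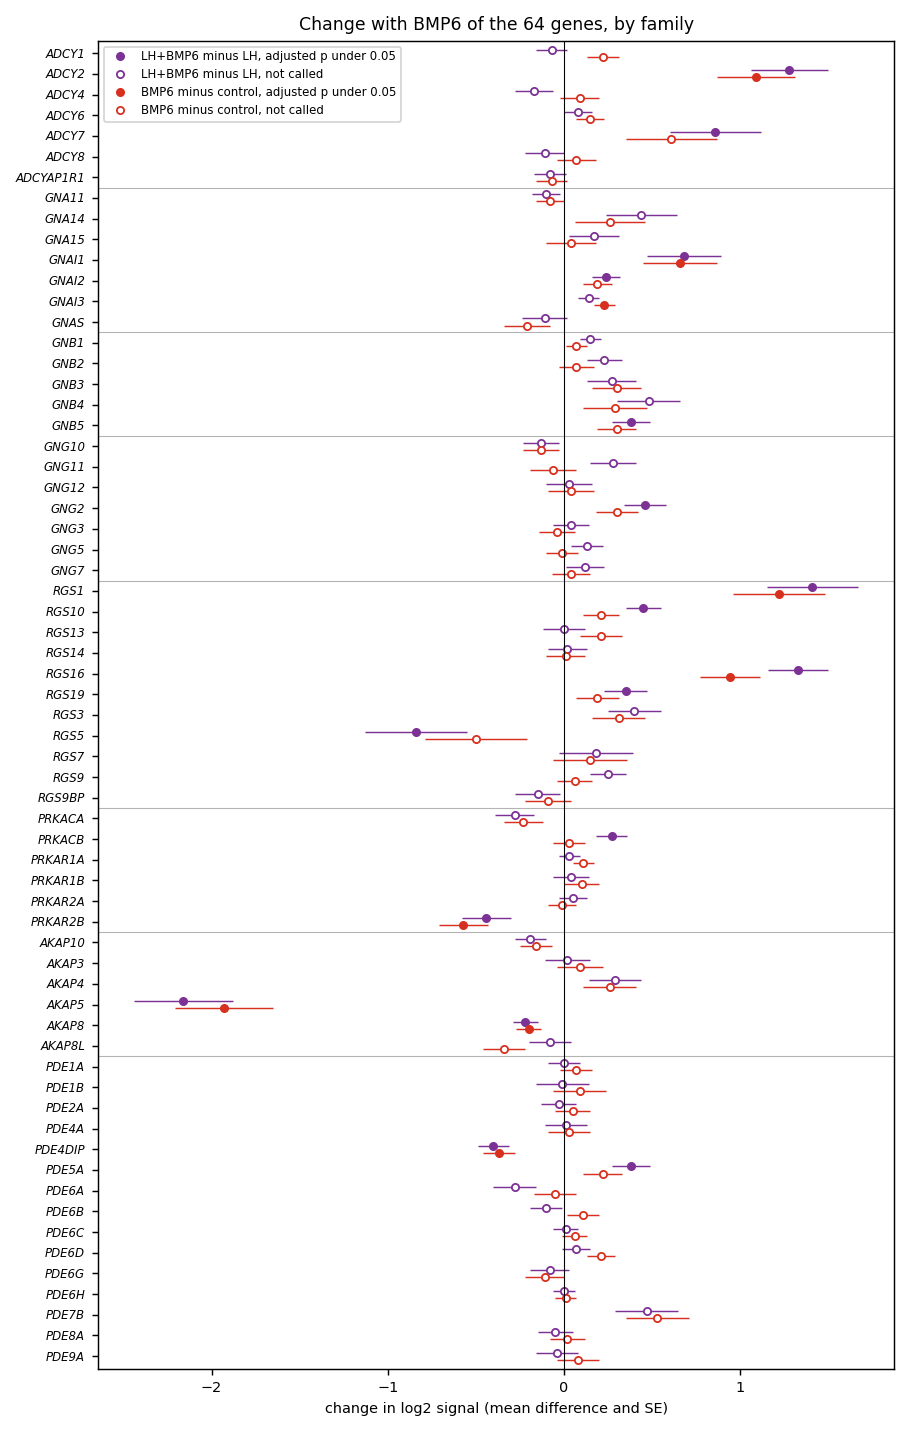
Change with BMP6 of each of the 64 genes (mean difference in log2 signal and its SE, horizontal axis), grouped by family from top to bottom; purple is LH+BMP6 minus LH, red is BMP6 minus control, and filled points have a limma adjusted p under 0.05. AKAP5 stands at -2.16 and -1.93 on the left and RGS1, RGS16 and ADCY2 at 0.94 to 1.41 on the right, while most PDE genes lie close to 0.

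Few PDE genes were called. Of 15, PDE5A rose and PDE4DIP fell in LH+BMP6 against LH (13.3%, against 27.2% of all genes), and PDE4DIP fell in BMP6 against control (6.67%, against 24.8%). The probe sets of 8 of the 15 were under the 40th percentile of signal, among them PDE6A and PDE6B, the catalytic subunits of the rod photoreceptor enzyme. Of the cAMP-specific enzymes named, PDE8A differed by -0.05 ± 0.10 (95% interval -0.27 to 0.16) and 0.02 ± 0.10 (-0.19 to 0.23). PDE7B differed by 0.47 ± 0.18 (adjusted p = 0.0807) and 0.53 ± 0.18 (adjusted p = 0.0574) and was not called in either comparison. PDE5A, which breaks down cGMP and was named after its values were seen, lay at 5.72 to 5.96 on the LH+BMP6 arrays and 5.29 to 5.76 on the LH arrays. It rose by 0.38 ± 0.11 (adjusted p = 0.018), a call lost without LH replicate 1, LH replicate 2 or LH+BMP6 replicate 1 (0.32 to 0.33, adjusted p 0.0536 to 0.0678), and differed by 0.22 ± 0.11 (adjusted p = 0.184) in BMP6 against control. The other 11 PDE genes lay between -0.28 and 0.07 with LH and between -0.11 and 0.21 without it, and none was called.

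PDE4DIP is no phosphodiesterase but myomegalin, a Golgi and centrosome scaffold that binds PDE4D, and its probe sets disagreed. The represented probe set had signals of 7.65, 7.53, 7.41 and 7.37 on the LH+BMP6 arrays, against 7.95, 8.10, 7.84 and 7.68 on the LH arrays, and 7.52, 7.48, 7.48 and 7.50 on the BMP6 arrays, against 8.03, 7.78, 7.84 and 7.81 on the control arrays. The groups did not overlap, and it fell by 0.40 (SE 0.09, adjusted p = 0.00444) and by 0.37 (SE 0.09, adjusted p = 0.00936). Without the 3 dim-control arrays the second of these was not called (-0.30, adjusted p = 0.121). Another of the 5 probe sets of PDE4DIP rose, by 0.45 ± 0.10 (adjusted p = 0.0034) with LH and by 0.55 ± 0.10 (adjusted p = 0.000977) without it. A further one was called only in BMP6 against control, where it fell (-0.29 ± 0.09, adjusted p = 0.0371), and the remaining probe sets were not called. The direction of PDE4DIP therefore depends on the probe set.

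**Figure D5:**
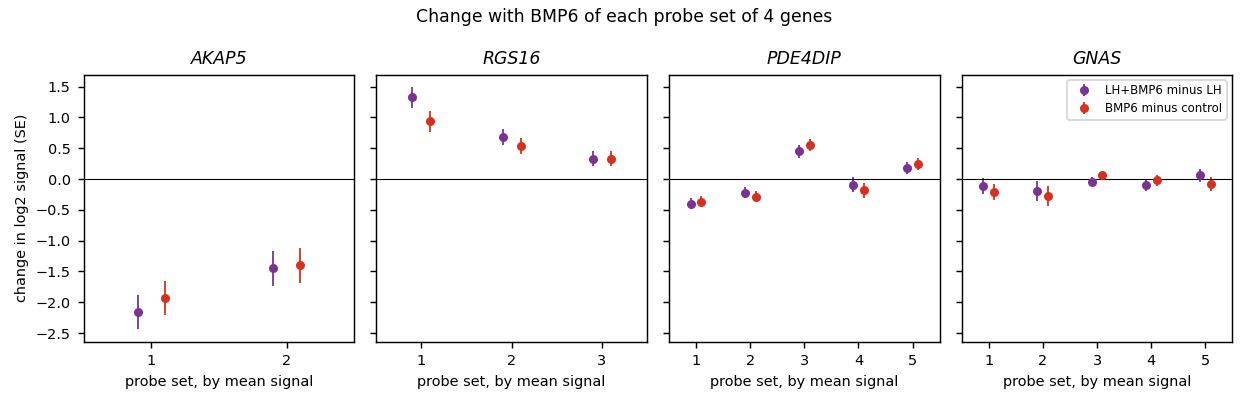
Change with BMP6 (mean difference in log2 signal and its SE, vertical axis) for each probe set of AKAP5, RGS16, PDE4DIP and GNAS, ordered by mean signal from highest to lowest along the horizontal axis; purple is LH+BMP6 minus LH and red is BMP6 minus control. The AKAP5 probe sets lie below 0 and the RGS16 probe sets above it, the PDE4DIP probe sets lie on both sides, and no GNAS probe set was called.

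LH itself, the hormone whose receptor this machinery serves, was set against control and, in the presence of BMP6, as LH+BMP6 against BMP6. In LH against control 0 of 64 genes were called by limma, against 0.0218% of all genes and 0.0125% of all probe sets, and 2 had an unadjusted p under 0.05. These were GNG11, at 9.43, 9.74, 10.13 and 10.15 on the LH arrays, against 10.03, 10.20, 10.35 and 10.33 on the control arrays (-0.36 ± 0.13, adjusted p = 0.815), and ADCY1, at 5.05, 5.02, 5.01 and 4.89 on the LH arrays, against 4.61, 4.93, 4.81 and 4.77 on the control arrays (0.21 ± 0.09, adjusted p = 0.907). Both pairs of groups overlapped. PDE6D and PDE6H, named after their values were seen, were the only genes without overlap (2 of 64, 3.12%, against 3.12% of all probe sets), with differences of 0.14 ± 0.08 and 0.11 ± 0.06. GNAS differed by -0.09 ± 0.13 (95% interval -0.37 to 0.18), AKAP5 by 0.31 ± 0.28 (-0.28 to 0.90) and ADCY7 by -0.26 ± 0.26 (-0.80 to 0.29), and changes within those intervals remain possible.

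In LH+BMP6 against BMP6, 0 of 64 genes were called by limma, as were 0.0% of all genes, and 0 had an unadjusted p under 0.05 (471 of all probe sets did). The differences lay between -0.29 (RGS5) and 0.20 (GNB2), and no gene was free of overlap (0 of 64, against 1.67% of all probe sets). This comparison and LH+BMP6 against LH share the LH+BMP6 arrays. In the 22 alternatives for LH against control and for LH+BMP6 against BMP6, 0 members were called.

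Beyond the members, the receptor at the head of the pathway fell and several known cAMP-responsive genes rose with BMP6. LHCGR, the LH receptor, averaged 6.18 on the LH+BMP6 arrays, against 8.11 on the LH arrays, and 5.82 on the BMP6 arrays, against 7.88 on the control arrays, without overlap. It fell by 1.93 (SE 0.19, adjusted p = 2.55e-06) and by 2.06 (SE 0.19, adjusted p = 1.33e-06). Of the 9 named of 11 listed receptors that couple to cyclase, PTGER4, a prostaglandin E receptor, and VIPR2, a receptor for vasoactive intestinal peptide, rose with LH (0.95 ± 0.21 and 0.78 ± 0.24), VIPR2 rose without it (0.79 ± 0.24), and LHCGR was the one that fell. That is 33.3% and 22.2% of the list called, against 27.2% and 24.8% of all genes, with a median change of -0.06 and 0.08. Of 10 named of 14 listed cAMP-responsive genes, which other stimuli can induce too, 4 rose and 1 fell with LH (median 0.35) and 5 rose and 1 fell without it (median 0.36). That is 50.0% and 60.0% called, against 27.2% and 24.8% of all genes. The rises included PTGS2, a prostaglandin synthase (2.09 ± 0.41 and 2.12 ± 0.41), NR4A1, an orphan nuclear receptor (1.58 ± 0.19 and 1.16 ± 0.19), NR4A2 of the same family (1.21 ± 0.18 and 0.97 ± 0.18) and the transcription factor FOS (0.95 ± 0.17 and 0.78 ± 0.17), and DUSP1, a phosphatase, fell (-0.21 ± 0.07 and -0.24 ± 0.07).

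In the CREB family and its coactivators, which carry the PKA signal to the genome, 1 of 7 named of 9 listed genes was called in each comparison (14.3%). This was CREM, whose isoforms include repressors of cAMP-driven transcription, with rises of 0.94 ± 0.19 (adjusted p = 0.00174) and 1.02 ± 0.19 (adjusted p = 0.00107). Of 5 named of 11 listed PKA inhibitors and other cAMP effectors, RAP1B, a small GTPase, rose in both (0.50 ± 0.07 and 0.34 ± 0.07) and RAP1A with LH (0.34 ± 0.09), and 0 fell (2 of 5 and 1 of 5 called). Of the genes of receptor desensitisation, ARRB1, ARRB2, GRK2, GRK3, GRK5 and GRK6 were named and GRK4 was not. Among these 6, the kinase GRK3 rose in both (0.47 ± 0.10 and 0.46 ± 0.10) and GRK5 fell with LH (-0.43 ± 0.09), which is 33.3% and 16.7% called. The medians of these 3 lists were 0.02, 0.21 and 0.02 with LH and -0.04, 0.17 and 0.06 without it. Of all genes, 27.2% were called with LH and 24.8% without it.

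Of 11 named of 17 listed effectors of Gq and G12/13, PLCB1, a phospholipase C (0.78 ± 0.21 and 1.17 ± 0.21), and PRKCD, a protein kinase C (0.85 ± 0.12 and 0.74 ± 0.12), rose in both comparisons, and the inositol trisphosphate receptors ITPR1 (-0.44 ± 0.15) and ITPR2 (-0.37 ± 0.11) fell with LH (36.4% and 18.2% called). Among 6 named of 10 listed accessory proteins and other alpha subunits, GPSM2, a Gi-binding protein, fell in both (-0.60 ± 0.12 and -0.44 ± 0.12), and 0 rose (16.7% called in each). The medians were 0.00 and 0.02 for the effectors and 0.00 and 0.09 for the accessory list, in LH+BMP6 against LH and in BMP6 against control. Of all genes, 27.2% and 24.8% were called in these comparisons. In LH against control, 0 genes of these 7 lists were called by limma. Endothelial markers (6 named of 7 listed) had 0 calls by limma in either comparison with BMP6, with 3 and 0 at an unadjusted p under 0.05. Of 5 granulosa markers CDH2, a cadherin, rose in both (1.77 ± 0.27 and 1.67 ± 0.27), which is 1 of 5 called in each, and the list's median change was -0.13 and 0.07. HSD17B1, a steroid dehydrogenase, differed by -0.49 ± 0.34 (adjusted p = 0.36) and -0.86 ± 0.34 (adjusted p = 0.0951), and AMH, a hormone of granulosa cells, by -0.26 ± 0.15 (adjusted p = 0.245) and -0.43 ± 0.15 (adjusted p = 0.0512). FSHR, CYP19A1 and AMH were under the 40th percentile.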

How the data were processed

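Bovine theca interna cultures in 4 groups (LH+BMP6, BMP6, LH, control) were measured on 16 Affymetrix bovine arrays. The deposited values are log2 signals, made by the authors with RMA in Affymetrix Expression Console, per the submitters' processing notes. They were used as deposited, and 0 value columns were left unused. After 112 control probe sets were set aside, 24016 were fitted in limma 3.58.1 (R 4.3.3) with group means over all arrays, eBayes with a trend and Benjamini-Hochberg adjustment over all probe sets. The number of arrays limits the precision (median SE of a difference, 0.102). Gene names come from GEO's platform annotation: 13292 probe sets had 1 symbol, 86 several and 10638 none. All 92 member probe sets were found by Entrez identifier, with 0 symbols changed.

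Members and lists (7 of the pathway, 5 of cell type markers) were chosen with earlier results of these data known. Genes were named as the widest change of each family in each comparison, the called genes with the widest changes (up to 8 per direction), and a fixed core of cyclases, G alpha, PKA and RGS genes. Alternatives were a replicate block, robust or trend-free eBayes, no dim probe sets (under the 40th percentile), quantile normalization, only the arrays compared, the mean of a gene's probe sets, omission of arrays or replicate numbers, and, chosen after seeing the data, the arrays of low hybridisation-control signal left out or as a term. The fit was tested on simulated data. Sequences and coordinates were not used here. Random blocks used statmod 1.5.0, tables pandas 2.3.3 and numpy 2.4.6, and figures matplotlib 3.10.9 (Python 3.11.15).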

Additional observations from a re-analysis of the deposited data

Results flagged for a closer look

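In 6 of 156 groups of 4 arrays (39 genes, 4 groups each; 3.85%), 1 array stood apart from the others, its gap to the nearest array taking up more of the group's range than Dixon's critical value allows. Chance sets apart about 1 in 20 such groups, and the arrays involved differ from gene to gene. GNAI1 on BMP6 replicate 2 was 8.92, against 9.93 to 10.01 on the other BMP6 arrays (0.931 of the range). PDE8A on LH+BMP6 replicate 1 was 7.10, against 7.37 to 7.39 (0.92), and on control replicate 3 it was 7.40, against 7.21 to 7.23 (0.897). ADCY1 on BMP6 replicate 4 was 4.91, against 5.02 to 5.04 (0.876). PDE7B on LH+BMP6 replicate 2 was 6.27, against 5.58 to 5.68 (0.859). ADCY6 on LH replicate 4 was 6.46, against 6.76 to 6.82 (0.84).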

How the results depend on the processing

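In LH+BMP6 against LH, 17 members were called, and the count was 8 to 15 without single arrays (lowest without LH replicate 1, then 10 without LH+BMP6 replicate 2 or replicate 3 and 11 without LH+BMP6 replicate 1) and 6 to 13 without a replicate number (6 without replicate 3, 9 without replicate 1 or 4). It was 11 with the 3 dim-control arrays marked by a term and 7 without these arrays. In BMP6 against control, 9 were called, with 7 to 10 without single arrays, 6 to 7 without a replicate number, 6 with that term and 4 without those arrays. Fewer arrays or more terms leave fewer degrees of freedom; the cause of each lost call was not tested. Of the 44 alternative counts of these comparisons, 10 moved by over 1.5 times, 9 of 22 in LH+BMP6 against LH and 1 of 22 in BMP6 against control; the other comparisons had 0 calls in every alternative. PRKACB in BMP6 against control (0.03, not called) was -0.06 to 0.11 when arrays or replicate numbers were left out. Of 792 values for single genes, 621 kept direction and call, 153 lost the call, 14 gained one and 4, all PRKACB, changed sign. The main test did not pair arrays by replicate number. Same-numbered deviations from the group means correlated at 0.09 to 0.27 for LH+BMP6 and LH (mean 0.20, against -0.07 for other numbers). For BMP6 and control they correlated at -0.11 to 0.15 (0.04 against -0.01). The values were 0.08 to 0.69 for LH+BMP6 and BMP6 (0.38 against -0.12), and 0.02 to 0.32 for LH and control (0.16 against -0.05). Same-numbered arrays were thus more alike on average, and whether a number marks a batch was not tested. Of 8 arrays each, 7, 4, 5 and 5 correlated best with their own number. With the replicate block the counts were 22 and 13, with a random block 19 and 12, and 0 in the other comparisons, as without it. The replicate block lost PRKACB with LH and AKAP8 without it, and without LH gained RGS5 (-0.50, adjusted p = 0.0103), ADCY7, GNAI2 and GNB5. Some calls without LH were also gained elsewhere: GNB5 under 6 other alternatives, ADCY7 with only the arrays compared, GNAI2 and GNG2 without control replicate 3, and RGS10 without replicate 1. No background was estimated, so changes of the 20 members under the 40th percentile are the least certain.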
